A study of Homo sapiens with 6 samples.

Results

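The genes described here are 10 regulators of the G1 phase, namely the D-type cyclins CCND1 and CCND2, the E-type cyclins CCNE1 and CCNE2, the Cip/Kip inhibitors CDKN1A, CDKN1B and CDKN1C, and the INK4 inhibitors CDKN2A, CDKN2B and CDKN2C. They were chosen by gene symbol. Each symbol had 1 probe set, so the 10 genes were 10 of the 135750 transcript probe sets on each array, of which 86161 carried a symbol. MCF10.AT1 is a preneoplastic human breast epithelial line, derived from MCF10A cells with an activated HRAS gene, and the labels list it as untreated and fluvastatin sensitive. MCF10.AT1-R is the fluvastatin resistant line selected from it under stepwise doses of fluvastatin from 1 to 20 µM. It is 1 selected line, and whether the drug was present when its RNA was taken is not given in the sources used here. Total RNA of each line was hybridised to 3 Clariom D arrays, labelled as biological replicates. Arrays A01, A02 and A03 held RNA of MCF10.AT1. Arrays B02, B03 and B04 held RNA of MCF10.AT1-R. The authors removed A03 as an outlier, so the lines were compared over 2 and 3 arrays and A03 is given apart. Every array name begins with A for MCF10.AT1 and with B for MCF10.AT1-R, so the line and whatever this letter marks cannot be told apart.

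Passage from G1 into S phase is driven by cyclin-dependent kinases (CDKs). D-type cyclins activate CDK4 and CDK6 in response to growth signals, E-type cyclins then activate CDK2, and together these kinases phosphorylate the RB protein and release the E2F transcription factors. INK4 proteins bind CDK4 and CDK6 and block D-type cyclins, whereas Cip/Kip proteins bind cyclin and CDK complexes more broadly. In cultured cells statins are known to arrest growth in G1 and to raise p21 (CDKN1A) and p27 (CDKN1B), and MCF10A cells are known to have lost the CDKN2A and CDKN2B genes from both copies of chromosome 9.

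Values are log2 expression values made by the RMA method, so a difference of 1 is a doubling, and levels of different genes are not set against each other because probes differ in response. Between MCF10.AT1 and MCF10.AT1-R, CCND1 and CDKN1A were higher on every MCF10.AT1-R array, and CCNE2, CDKN1B and CDKN2C were lower on every MCF10.AT1-R array. The arrays of the lines overlapped for the other 5 genes. Of all tested probe sets, 26.7% had arrays that were separated by line, with 12.9% higher and 13.8% lower in MCF10.AT1-R. None of the 9 genes tested passed a false discovery rate (FDR) of 5% in limma, against 1.2% of all tested probe sets (0.758% higher and 0.447% lower in MCF10.AT1-R). At an unadjusted p under 0.05 in limma, 5 of the 9 passed, against 8.26% of all tested probe sets. This fit gave every probe set the same SD of 0.34. When the variance was allowed to follow the expression level (limma's trend option), CCND1 and CDKN1A passed as higher and CDKN1B as lower, 3 of 9 genes against 2.68% of all tested probe sets (1.69% higher and 0.981% lower). With the trend option and no filter on invariant probe sets, CCND1 and CDKN1A passed, 2 of 10 genes against 1.6% of the probe sets tested (1.13% higher and 0.474% lower). At an unadjusted p under 0.05, 5 of 10 passed in that limma fit, against 10.2% of the probe sets tested.

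**Figure D1:**
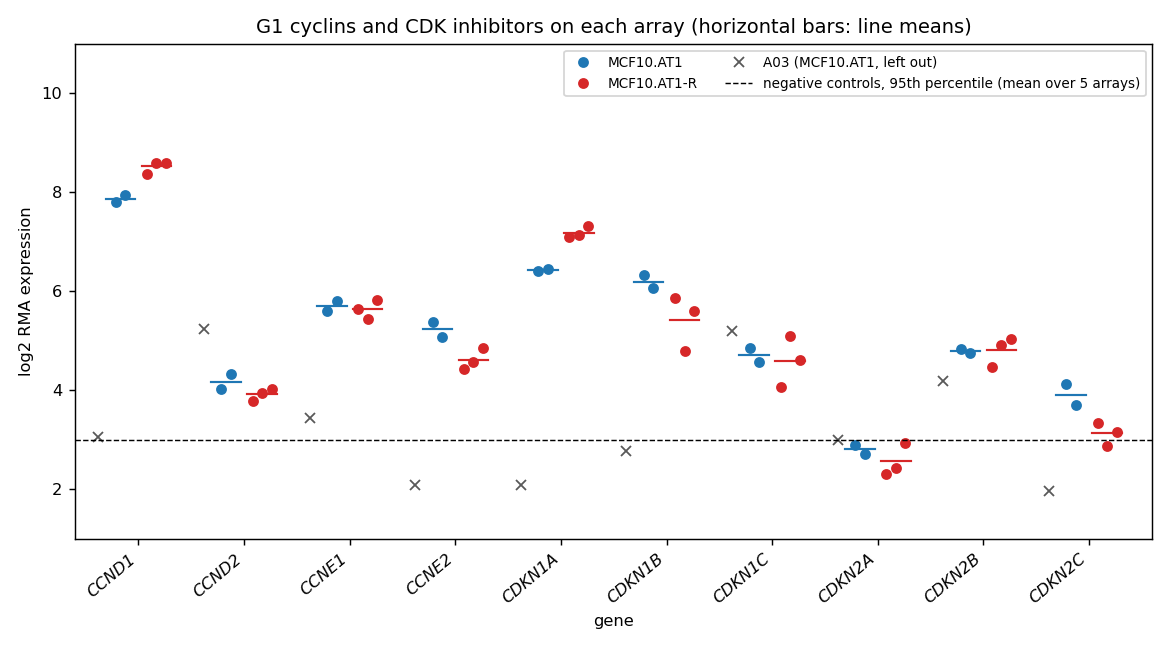
Log2 RMA expression (vertical axis) of each of the 10 genes on each array, with MCF10.AT1 in blue, MCF10.AT1-R in red, line means as horizontal bars, A03 as grey crosses and the 95th percentile of the negative controls as a dashed line. CCND1 and CDKN1A were higher on all 3 MCF10.AT1-R arrays, CDKN2A lay below the dashed line, and A03 departed from both lines for most genes.

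Cyclin D1 (CCND1) couples growth factor signals to CDK4 and CDK6. The CCND1 value was 7.81 on A01 and 7.94 on A02, and it was 8.38 on B02, 8.60 on B03 and 8.59 on B04. The lowest MCF10.AT1-R array lay 0.44 above the highest MCF10.AT1 array. The mean of CCND1 was 7.88 ± 0.09 (SD, n = 2) in MCF10.AT1, against 8.52 ± 0.13 (SD, n = 3) in the resistant line, a log2 difference of 0.65 or 1.57-fold. In limma with the common SD the 95% interval of this difference was 0.04 to 1.26 (adjusted p = 0.545). With the trend option the adjusted p from limma was 5.47e-05, and without the invariance filter it was 0.00554 (interval 0.42 to 0.87). In the latter fit CCND1 no longer passed without A01 (adjusted p = 0.107 from limma).

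Cyclin D2 (CCND2) is a D-type cyclin with the same CDK partners. The CCND2 value was 4.02 on A01, 4.33 on A02, 3.78 on B02, 3.95 on B03 and 4.03 on B04. The lines overlapped, with B04 just above A01. The log2 difference of -0.25 had a 95% interval of -0.87 to 0.36 (adjusted p = 0.849 from limma), so a change of that size in either line was not resolved.

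Cyclins E1 and E2 activate CDK2 late in G1 and are classical E2F target genes. For CCNE1 the values were 5.60 on A01 and 5.80 on A02, against 5.65 on B02, 5.44 on B03 and 5.82 on B04. These arrays overlapped throughout, and the filter on invariant probe sets left this one out. In limma without a filter the log2 difference of CCNE1 was -0.06, with a 95% interval of -0.52 to 0.40. For CCNE2 the values were 5.38 on A01 and 5.08 on A02, against 4.43 on B02, 4.57 on B03 and 4.85 on B04. All 3 MCF10.AT1-R arrays were lower, by at least 0.23. The log2 difference of CCNE2 was -0.61, from 5.23 ± 0.21 (SD, n = 2) to 4.61 ± 0.21 (SD, n = 3), and it passed neither in limma with the common SD (adjusted p = 0.598) nor with the trend option (adjusted p = 0.345).

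CDKN1A encodes p21, an inhibitor of CDK2 complexes. Its value was 6.41 on A01 and 6.45 on A02, and 7.09 on B02, 7.14 on B03 and 7.32 on B04. The gap between the lines was 0.64, far wider than the spread of either line. The mean was 6.43 ± 0.03 (SD, n = 2) in MCF10.AT1, against 7.18 ± 0.12 (SD, n = 3) in the resistant line, a log2 difference of 0.75 or 1.69-fold. The 95% interval with the common SD was 0.14 to 1.36 (adjusted p = 0.377 from limma). With the trend option CDKN1A passed (adjusted p = 0.00239 from limma), and without the invariance filter the adjusted p was 0.00821 from limma. In the latter fit it passed without B02, B03 or B04 but not without A01 (adjusted p = 0.105 from limma) or A02 (adjusted p = 0.0987 from limma), and with both filters it also did not pass without B04 (adjusted p = 0.065 from limma).

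CDKN1B encodes p27, which holds CDK2 inactive in resting cells and is removed by SKP2-dependent degradation. Its value was 6.34 on A01 and 6.06 on A02, against 5.86 on B02, 4.80 on B03 and 5.61 on B04. The MCF10.AT1-R arrays were all lower, but B02 lay only 0.20 below A02, and B03 stood well below the other arrays of its line. The mean was 6.20 ± 0.20 (SD, n = 2) in MCF10.AT1, against 5.42 ± 0.56 (SD, n = 3) in the resistant line, a log2 difference of -0.78. The residual SD of 0.47 was above the common SD of 0.34. In limma the adjusted p was 0.344 with the common SD, 0.0341 with the trend option and 0.252 without the invariance filter. Without B03 the difference was -0.46, and with the trend option and both filters CDKN1B then no longer passed (adjusted p = 0.474 from limma). It also did not pass in that fit without A01 (adjusted p = 0.675 from limma), A02 (adjusted p = 0.209 from limma) or B04 (adjusted p = 0.0511 from limma).

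CDKN1A and CDKN1B stood on opposite sides of the comparison, and the sequences before their start sites are shown for that reason. The 250 bases before the start were taken from RefSeq (GRCh38.p14), where 6 of the 10 genes had at least 1 such window. Capitals mark the GC box (GGGCGG on either strand), the letters bound by SP1 and KLF factors.
CDKN1A chr6:36678464-36678713, plus strand: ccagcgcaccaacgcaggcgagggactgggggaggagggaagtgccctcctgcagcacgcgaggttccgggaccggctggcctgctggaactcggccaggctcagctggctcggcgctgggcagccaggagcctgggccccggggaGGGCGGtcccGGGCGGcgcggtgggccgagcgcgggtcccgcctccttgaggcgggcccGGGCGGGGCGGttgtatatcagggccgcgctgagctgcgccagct
CDKN1B chr12:12717118-12717367, plus strand: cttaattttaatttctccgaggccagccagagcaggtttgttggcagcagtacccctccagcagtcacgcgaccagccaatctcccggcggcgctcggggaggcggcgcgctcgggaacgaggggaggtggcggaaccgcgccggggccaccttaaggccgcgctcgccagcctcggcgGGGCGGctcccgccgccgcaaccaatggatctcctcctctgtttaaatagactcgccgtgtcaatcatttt
The CDKN1A window held 4 GC boxes, 2 of which overlap by a base, and the CDKN1B window held 1. A GC box was present in 42.6% of all 35116 windows, so its presence sets neither gene apart. Neither window held an E2F site (TTTCGCGC or TTTGGCGC, in 0.968% of all windows), an AP-1 site (TGACTCA, in 4.2%), an E-box (CACGTG, in 6.34%) or a sterol regulatory element (TCACNCCAC, in 0.883%) on either strand. A match or its absence describes these letters only.

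CDKN1C encodes p57, an imprinted Cip/Kip inhibitor. Its value was 4.85 on A01, 4.57 on A02, 4.07 on B02, 5.09 on B03 and 4.61 on B04, so the lowest and the highest array both belonged to MCF10.AT1-R. The log2 difference was -0.12, with a 95% interval of -0.73 to 0.49 (adjusted p = 0.931 from limma). Genes near CDKN1C in its imprinted region were also read. H19, a noncoding RNA, was lower on all MCF10.AT1-R arrays (log2 difference -0.60, adjusted p = 0.62 from limma). IGF2 (-0.63) and the antisense RNA KCNQ1OT1 were also lower on all of them, whereas KCNQ1 (0.30) and CARS (0.30) were higher. IGF2 read 3.19 on A01 and 4.22 on A02, against 3.08 on B02, 3.01 on B03 and 3.13 on B04. The size of the IGF2 difference thus came mostly from A02. NAP1L4 (0.07), PHLDA2 (0.04) and SLC22A18 (-0.02) overlapped. Of the 8 neighbours 3 were thus lower and 2 higher on every MCF10.AT1-R array, where 12% and 12.7% of all probe sets with a symbol were. None of the 7 neighbours tested passed an FDR of 5% in limma. Of the 7, 2 had an unadjusted p under 0.05 in limma, IGF2 and KCNQ1OT1, against 8.26% of all tested probe sets. KCNQ1OT1 lay above the 95th percentile of the negative controls on only 1 of the 5 arrays, A01, and within background on every MCF10.AT1-R array. No size of its difference is given for that reason, and its place in these counts rests on readings near background.

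CDKN2C encodes the INK4 protein p18. Its value was 4.13 on A01 and 3.70 on A02, against 3.34 on B02, 2.88 on B03 and 3.16 on B04. All MCF10.AT1-R arrays were lower, by at least 0.36, and B03 lay under the 95th percentile of the negative controls on that array (2.96). The log2 difference of -0.78, from 3.91 ± 0.31 (SD, n = 2) to 3.13 ± 0.23 (SD, n = 3), did not pass in limma with the common SD (adjusted p = 0.332) or with the trend option (adjusted p = 0.281).

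**Figure D2:**
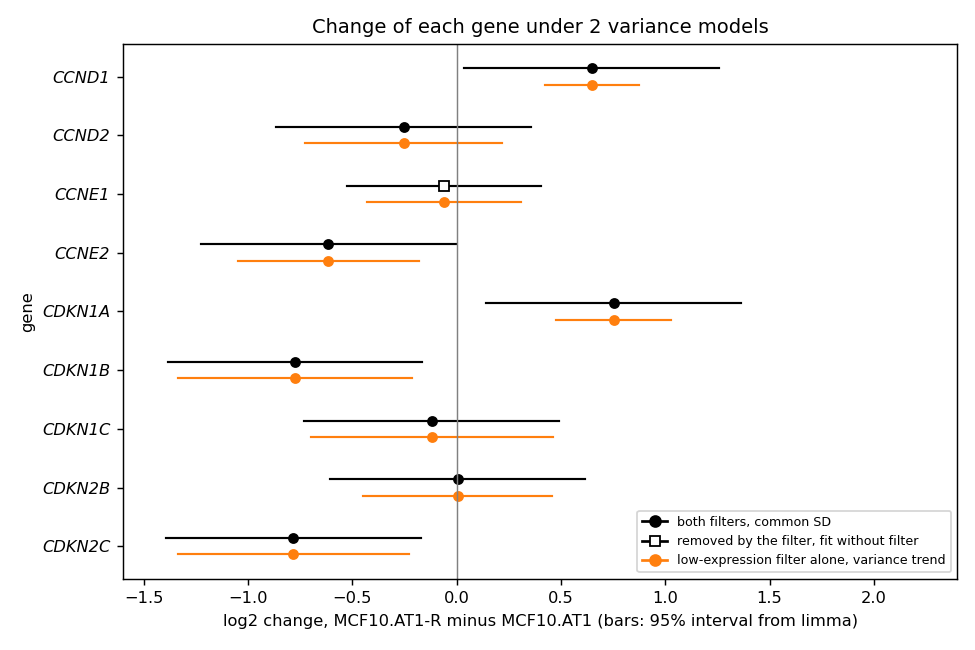
Log2 change of 9 of the genes (MCF10.AT1-R minus MCF10.AT1, horizontal axis) with its 95% interval from limma, in black for the fit with both filters and a common SD (open square for CCNE1, from the fit without a filter) and in orange for the low-expression filter alone with a variance trend. The orange interval of CCND1 runs from 0.42 to 0.87 and that of CDKN1A from 0.48 to 1.03, and the intervals of CCND2, CCNE1, CDKN1C and CDKN2B include 0 in both colours. CDKN2A, within background on all 5 arrays, is not drawn.

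CDKN2A encodes p16 and, from another first exon, ARF, and CDKN2B encodes p15. The CDKN2A value was 2.90 on A01, 2.71 on A02, 2.31 on B02, 2.44 on B03 and 2.94 on B04. On each of these arrays it lay below the 95th percentile of the 612 negative control probe sets, which was 3.14 on A01, 3.03 on A02, 2.88 on B02, 2.96 on B03 and 2.95 on B04. The arrays of both lines overlapped (adjusted p = 0.854 from limma), and no difference is given since both lines lay within background. The CDKN2B value was 4.84 on A01, 4.76 on A02, 4.47 on B02, 4.91 on B03 and 5.03 on B04. Each reading was above the 95th percentile of its array's negative controls, on 5 of 5 arrays. The highest of the 612 negative controls read 6.45 on A01, 5.43 on A02, 6.28 on B02, 5.90 on B03 and 8.47 on B04. On each of these arrays CDKN2B lay below that highest control. Background probe sets rich in G and C (20 to 25 such bases, 6 probe sets) had a mean of 4.10 on A01, 4.24 on A02, 3.82 on B02, 4.07 on B03 and 4.20 on B04, and the highest of the 6 was 4.32 on A01, 4.54 on A02, 4.15 on B02, 4.29 on B03 and 4.45 on B04. CDKN2B lay above each of the 6 on every array of the comparison. The CDKN2B level did not separate the lines, with a log2 difference of 0.01 and a 95% interval of -0.61 to 0.62 (adjusted p = 0.997 from limma). Whether CDKN2B probes bind other transcripts was not tested.

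The genes on either side of CDKN2A and CDKN2B on chromosome 9 were read in chromosomal order. MTAP, the methylthioadenosine phosphorylase gene next to CDKN2A, read 1.89 on A01, 1.22 on A02, 2.27 on B02, 1.49 on B03 and 1.82 on B04, within the negative controls on 5 of 5 arrays. CDKN2B-AS1, an antisense RNA that overlaps CDKN2B, read between 0.48 and 1.00 and lay within the negative controls on all 5 arrays. On one side, IFNE (6.51 on A01, 6.86 on A02, 6.03 on B02, 6.35 on B03 and 6.38 on B04), KLHL9 and FOCAD lay above those controls on all 5 arrays. On the other side, DMRTA1 lay above them on 4 of the 5 arrays and ELAVL2 on all 5. MTAP, CDKN2A and CDKN2B-AS1 thus read below the 95th percentile of the negative controls in both lines. CDKN2B, between CDKN2B-AS1 and DMRTA1 in this order, lay above it but below the highest negative control on each of the 5 arrays. IFNE was lower on all MCF10.AT1-R arrays (log2 difference -0.43, adjusted p = 0.793 from limma). ELAVL2 was higher on all of them (0.65), and passed with the trend option (adjusted p = 0.016 from limma) but not with the common SD (adjusted p = 0.534 from limma). FOCAD (0.03), KLHL9 (-0.03) and DMRTA1 (-0.28) overlapped between the lines.

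**Figure D3:**
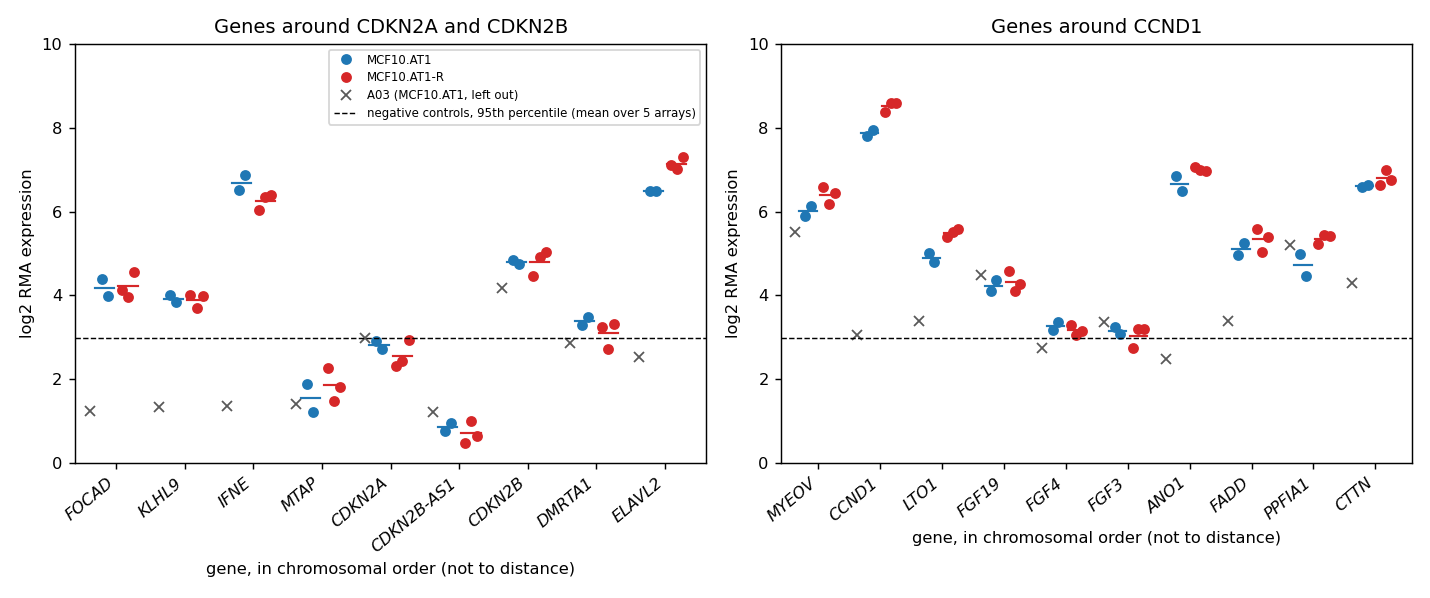
Log2 RMA expression (vertical axis) of the genes around CDKN2A and CDKN2B (left) and around CCND1 (right), in chromosomal order and not to distance, with symbols as for the 10 genes. MTAP, CDKN2A and CDKN2B-AS1 lay under the dashed line on each of the 5 arrays compared, and 6 of the 10 genes on the right, CCND1 included, were higher on every MCF10.AT1-R array.

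CCND1 lies on chromosome 11 in a region that is often amplified in breast cancer. Of its 9 neighbours read here, MYEOV, LTO1, ANO1, PPFIA1 and CTTN, 5 genes, were higher on every MCF10.AT1-R array and none was lower on every such array, where 12.7% of all probe sets with a symbol were higher in this way. LTO1, the nearest of these to CCND1, read 5.02 on A01 and 4.79 on A02, against 5.40 on B02, 5.52 on B03 and 5.57 on B04. The log2 difference was 0.59 for LTO1, 0.63 for PPFIA1, 0.40 for MYEOV, 0.34 for ANO1 and 0.19 for CTTN. Some of these sizes leaned on 1 array. PPFIA1 read 4.99 on A01 and 4.45 on A02, and ANO1 read 6.84 on A01 and 6.49 on A02, so both differences were smaller against A01. CTTN read 6.99 on B03, above B02 (6.64) and B04 (6.76). FADD (0.23), FGF19 (0.08), FGF4 (-0.10) and FGF3 (-0.11) overlapped. The median over the 9 neighbours was 0.23. None of the 7 neighbours tested passed an FDR of 5% in limma, with or without the trend option. Of the 7, 1 had an unadjusted p under 0.05 in limma, PPFIA1, against 8.26% of all tested probe sets. With the trend option and no invariance filter, 4 of 9 had such a p in limma, against 10.2% of the probe sets tested, and none passed an FDR of 5%. The number of gene copies was not measured.

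The rest of the G1/S machinery was read from a list of 30 genes. Of the 30, 10 were lower on every MCF10.AT1-R array, 5 were higher and 15 overlapped, where 12% of all probe sets with a symbol were lower and 12.7% higher in this way. Those lower included E2F2 (log2 difference -0.69) and the RB relative RBL1 (-0.48). E2F2 read 4.44 on A01 and 4.18 on A02, against 3.95 on B02, 2.99 on B03 and 3.93 on B04. Much of the size of the E2F2 difference thus came from B03. RBL1 read 5.97 on A01 and 5.60 on A02, against 5.42 on B02, 5.28 on B03 and 5.24 on B04. Of the 19 that were tested none passed an FDR of 5% in limma, and 3 had an unadjusted p under 0.05 in limma, against 8.26% of all tested probe sets. With the trend option and no invariance filter, 12 of 29 had such a p in limma, against 10.2% of the probe sets tested. With the trend option, CCND3, CDK6 and CDK7 passed as higher and CDKN3 as lower, 4 of 19 against 2.68% of all tested probe sets. Without the invariance filter CDKN3 no longer passed (adjusted p = 0.0659 from limma). CDK6, a partner of the D-type cyclins, read 7.21 on A01 and 7.54 on A02, against 8.01 on B02, 8.09 on B03 and 8.32 on B04. The log2 difference of CDK6 was 0.77 (limma's adjusted p = 0.353 at the common SD, and 1.18e-05 with the trend option). CCND3, the third D-type cyclin, read 8.05 on A01 and 8.02 on A02, against 8.44 on B02, 8.43 on B03 and 8.57 on B04, a log2 difference of 0.45 (adjusted p = 0.0205 from limma with the trend option). All 3 MCF10.AT1-R arrays were thus higher for CCND1, CCND3 and CDK6 and not for CCND2. CDK7, the kinase that activates other CDKs, was higher by 0.65, and CDKN3, a phosphatase acting on CDK2, differed by -0.52. CDK4 (-0.09), CDK2 (-0.09) and RB1 (-0.09) overlapped between the lines. E2F1 also overlapped, at -0.12. The log2 difference of SKP2 was -0.09. The median over the 30 genes, tested or not, was -0.09, beside 0.0033 over all probe sets with a symbol and no filter.

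Genes downstream of the G1 kinases were read from lists of E2F targets of S phase and of mitosis markers. None of the 6 tested E2F targets passed in limma with or without the trend option, and none had an unadjusted p under 0.05 with the common SD. With the trend option and no invariance filter, 8 of 19 had an unadjusted p under 0.05 in limma, against 10.2% of the probe sets tested, and none passed an FDR of 5%. Of the 19 E2F targets, 10 were lower on every MCF10.AT1-R array and 2 were higher, where 12% and 12.7% of all probe sets with a symbol stood in this order. The median log2 difference was -0.18, and among the 19 the differences were -0.39 for MCM3, a subunit of the replicative helicase, and 0.27 for CDC6, which loads it. Of the 10 mitosis markers 8 were lower on every MCF10.AT1-R array and none was higher. Of all probe sets with a symbol, 12% were lower and 12.7% higher in this way. The median of the markers was -0.33, beside 0.0033 over all probe sets with a symbol and no filter. TOP2A, the topoisomerase of dividing cells, read 7.59 on A01 and 7.33 on A02, against 7.11 on B02, 6.47 on B03 and 6.78 on B04. None of the 6 tested mitosis markers passed in limma with the common SD, against 1.2% of all tested probe sets, and 1 had an unadjusted p under 0.05, against 8.26%. With the trend option and no invariance filter, 7 of 10 had such a p in limma, against 10.2% of the probe sets tested. TOP2A (log2 difference -0.67, adjusted p = 0.00666 from limma) and the mitotic kinase PLK1 (-0.41, adjusted p = 1.26e-05 from limma) passed as lower with the trend option, 2 of 6 against 2.68% of all tested probe sets (0.981% lower). Without the invariance filter PLK1 passed (adjusted p = 0.00458 from limma) and TOP2A did not (adjusted p = 0.0901 from limma). MKI67, the gene of the proliferation marker Ki-67, differed by -0.30 (adjusted p = 0.839 from limma). In RNA from whole cultures, fewer cells in a phase and less RNA per cell cannot be told apart.

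**Figure D4:**
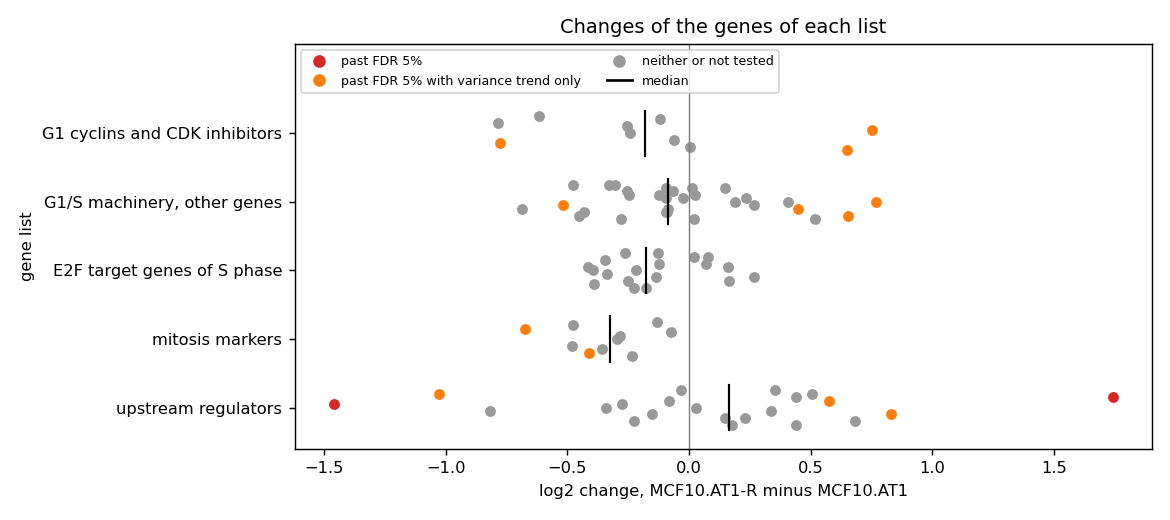
Log2 change (MCF10.AT1-R minus MCF10.AT1, horizontal axis) of each gene of 5 lists (rows), in red past an FDR of 5%, in orange past it with the variance trend only and in grey otherwise, with the median of each list as a black line. The red points are TP63 and FOXO1 among the upstream regulators, and the medians run from -0.33 for the mitosis markers to 0.16 for the upstream regulators.

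Known regulators of the 10 genes were read next. TP63, a transcription factor that maintains basal epithelium, rose. It read 4.55 on A01 and 4.08 on A02, against 5.97 on B02, 6.20 on B03 and 6.03 on B04. The log2 change of TP63 was 1.74 (limma's adjusted p = 8.14e-06, standard error 0.31). With A03 added TP63 did not pass (adjusted p = 0.247 from limma). FOXO1, a transcription factor of which CDKN1B is a known target, fell. It read 5.45 on A01 and 5.33 on A02, against 4.24 on B02, 3.56 on B03 and 3.98 on B04, a log2 change of -1.46 (standard error 0.31, adjusted p = 0.000596 from limma). FOXO1 no longer passed without A01 (adjusted p = 0.0806 from limma), with the low-expression filter alone (adjusted p = 0.0943 from limma), with values raised to the floor of the negative controls (adjusted p = 0.0942 from limma) or with A03, where its change was -0.29 (adjusted p = 0.906 from limma). Of the 15 upstream regulators tested, these 2 passed, 1 in each direction, against 1.2% of all tested probe sets. With the trend option MYC, KLF6 and ID1 passed as well, so that 5 of 15 did, against 2.68% of all tested probe sets. MYC, which drives CCND2 and represses CDKN1A, read 7.83 on A01 and 7.74 on A02, against 8.50 on B02, 8.63 on B03 and 8.72 on B04, a log2 difference of 0.83 (limma's adjusted p = 0.268 at the common SD, and 1.92e-08 with the trend option). KLF6, an activator of CDKN1A, was higher by 0.58 (adjusted p = 3.97e-06 from limma with the trend option). Of the other KLF genes of this list, KLF4 was lower on every MCF10.AT1-R array (-0.82) and KLF5 was higher (0.44). SP1 was also lower on every such array (-0.34). KLF4, KLF5 and SP1 did not pass an FDR of 5% in limma with or without the trend option. ID1, an inhibitor of basic helix-loop-helix factors, differed by -1.03 (limma's adjusted p = 0.0698 at the common SD, and 0.00117 with the trend option). Its relative ID3 was instead higher on every MCF10.AT1-R array, by 0.68 (limma's adjusted p = 0.486 at the common SD, and 0.0907 with the trend option). ID2 read within background on all 5 arrays. RHOA (-0.03), whose protein needs a geranylgeranyl group made by the mevalonate pathway, overlapped between the lines.

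Cell type markers were read beside these genes, and the shares they are set against are those over all tested probe sets, 1.2% called, of which 0.758% higher and 0.447% lower. All 7 basal epithelial markers read above background (the negative controls’ 95th percentile) on all 5 arrays. Of the 6 basal markers tested, KRT5, KRT14, KRT6A and TP63 passed as higher in limma, and of the 7 EGFR overlapped between the lines. The basal markers' summed log2 value was 50.5 on A01, 49.9 on A02, 59.0 on B02, 58.9 on B03 and 59.3 on B04. Of 5 markers of cornifying keratinocytes, 3 of which were tested, KRT1 and IVL passed as higher, and their summed value was 14.8 on A01, 14.3 on A02, 18.7 on B02, 18.6 on B03 and 20.0 on B04. FLG lay within background on all 5 arrays. KRT8 passed as higher among 4 luminal markers tested, and the summed value of the 6 luminal markers was 30.8 on A01, 31.1 on A02, 33.1 on B02, 31.9 on B03 and 32.5 on B04. Of these 6, 1 lay within background on all 5 arrays and 4 read above it on all 5. Of the other cell types, 1 marker each passed as lower, namely DCN of the fibroblast list (1 of 5 markers tested), PECAM1 of the endothelial list (2 of 3 tested) and CD14 of the immune list (3 of 4 tested), and the rest of these lists overlapped between the lines. The summed value of the fibroblast markers was 24.4 on A01, 24.9 on A02, 22.7 on B02, 21.9 on B03 and 22.8 on B04. That of the endothelial markers was 12.0 on A01, 11.8 on A02, 10.9 on B02, 10.2 on B03 and 10.6 on B04. That of the immune markers was 13.7 on A01, 15.1 on A02, 13.6 on B02, 13.6 on B03 and 13.1 on B04. The immune marker PTPRC and the fibroblast marker LUM lay within background on all 5 arrays. The part of these differences in the levels of the 10 genes was not tested.

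A03 read far from the other arrays for most of the 10 genes. It lay below all 5 other arrays for 7 of them. Among the 8 that read above background on all 5 arrays it did so for 6, and it did so for 36% of all such transcript probe sets. CCND1 read 3.06 on A03, CDKN1A read 2.08, CCNE2 read 2.08, CDKN1B read 2.76, CCNE1 read 3.44 and CDKN2C read 1.97. CDKN2B read 4.18 on A03, below the other arrays by only 0.29, and this was below the lowest of the 6 background probe sets rich in G and C on A03 (4.24). CDKN2A read 2.99 on A03, within its negative controls (3.15). CCND2 (5.24) and CDKN1C (5.19) read higher on A03 than on any other array.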

How the data were processed

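The authors deposited 1 table of log2 expression values for all 6 arrays, made with RMA by the Bioconductor packages affy and oligo; package versions and genome build are not given in the sources used here. The line of each array was taken from the study's principal component plot, where arrays named A are sensitive and those named B resistant, and the names carry no replicate number. Transcript probe sets (135750) were kept and 2995 control probe sets were used for background alone. A mean over the 5 arrays above the median (1.88) and an SD above the lowest 25% (0.18) were required, which left 51457 for testing. The paper's text does not give its own limits. Lines were compared in R (version 4.3.3) by limma's linear models and empirical Bayes test (version 3.58.1), and p-values were adjusted by Benjamini-Hochberg over all tested probe sets. The code was tested on simulated data, where the smaller changes put in, themselves larger than those of the 10 genes, were mostly missed, and where false calls exceeded the FDR aimed at when both filters were used, with or without the trend option. An exact permutation test over 2 and 3 arrays cannot give p below 0.1. CCNE1 was looked up in a fit without a filter. Of several probe sets per symbol the one with the highest mean was used. BMI1 was not matched. One gene list and a regulator enter the totals and are not reported here. The genes and lists were chosen with earlier results of these data known. Named are the 10 genes, list genes past FDR 5% in the lists reported, all locus genes and a few fixed regulators; others named were chosen after their values were seen. The number of arrays limits precision.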

Additional observations from a re-analysis of the deposited data

Results flagged for a closer look

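CCND2 read 5.24 and CDKN1C read 5.19 on A03, an array used only in the alternative with all 6 arrays. Both values lay above the 95th percentile of the negative controls on that array (3.15) and above every other array, the highest of which was 4.33 for CCND2 (A02) and 5.09 for CDKN1C (B03). On A03 the 6 background probe sets rich in G and C ran from 4.24 to 6.91, and the hybridization controls averaged 5.99, against 10.4 to 11.3 on the other arrays. Their part in these readings was not tested.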

How the results depend on the processing

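No paired analysis was possible because the array names carry no replicate number. The count of probe sets past FDR 5%, 620 in all, became 26 with A03, 177 without a filter, 182 when filtered on low expression alone, 1377 with the trend option, 1086 with that option and the low-expression filter alone and 243 with values raised to the floor of the negative controls, and it ran from 271 to 595 with 1 array left out. Of the 10 genes 9 were tested and 0 passed, against 1.2% of all tested probe sets, and 0 passed without B02, B03 or B04. With the trend option 3 passed (2.68% of all tested probe sets), and 2 passed with it and the low-expression filter alone (1.6%). Of the 125 genes of the pathway and locus lists 83 were tested and 3 passed, against 1.2% of all tested probe sets. The count was 0 with A03, 1 without a filter and 3 without B02, B03 or B04. It was lower without A01 and without A02, each of which left 1 MCF10.AT1 array. It was 13 with the trend option (2.68% of all tested probe sets) and 11 with it and the low-expression filter alone (1.6%). With A03 the log2 change turned to 0.69 for CCNE1, 0.44 for CCNE2 and 0.37 for CDKN1B. With 1 array left out, changes ran from -0.16 to 0.0388 for CCNE1, from -0.37 to 0.14 for CDKN1C and from -0.11 to 0.17 for CDKN2B, and CDKN2B was -0.0151 with array weights and -0.00187 with arrays centred on the median. CCND1, CCND2, CDKN1A and CDKN2C kept their direction in every alternative run, but with A03 the change was 2.25 for CCND1, -0.61 for CCND2, 2.20 for CDKN1A and -0.14 for CDKN2C, and without A02 it was -0.10 for CCND2. CDKN2A has no value with readings raised to the floor, since all 5 lay below it. FOXO1 did not pass without a filter (adjusted p = 0.106 from limma), and TP63 did not pass with A03 (adjusted p = 0.247 from limma). The cause of these shifts was not tested. Leaving out arrays in the trend fits was chosen after seeing the data. Where A01 or A02 was left out, the lone MCF10.AT1 array was assumed to vary like the others.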
